A study of Rattus norvegicus with 4 samples.

Results

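Cytochrome P450 enzymes and Por, the reductase that passes electrons to them, were read from rat small intestine arrays. A probe was taken when its gene name on the array was Cyp with a family number, a subfamily letter and a gene number, or was Por. Cyp51 was left out because it belongs to cholesterol synthesis. The rule found 72 probes for 63 genes among 41012 gene probes, and 37 of those probes, for 34 genes, passed the detection filter (signal well above background in 2 or more of the 4 rats), among 28415 such probes for 24313 genes. Of the 34 genes, 33 were P450 genes of 9 families and 1 was Por, and 28 were well above background on all 4 arrays.

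The study compared gut expression between male Wistar rats, an outbred stock, with and without an oral compost product. Control rats were given tap water only. Compost rats were given an extract, an incubated aqueous dilution of compost from an aerobic fermentation, at 1.0% (v/v) of their tap water, from 3 weeks of age for 12 weeks. Each group was 2 rats, sampled individually, with 1 array per rat. The tissue was small intestine without Peyer's patches, the lymphoid clusters of the gut wall, and the labels do not name the segment.

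P450 enzymes are haem proteins of the endoplasmic reticulum or the mitochondrion that insert an oxygen atom into their substrates. Members of CYP1 to CYP3 mainly oxidise drugs, plant compounds and pollutants, CYP4 enzymes hydroxylate fatty acids and eicosanoids, and the higher-numbered families act on sterols, bile acids, steroid hormones, vitamin D and retinoic acid. In the small intestine they lie mostly in absorptive enterocytes, where CYP3A enzymes carry out much of the first-pass metabolism of oral drugs. The receptors Nr1i2 (PXR) and Nr1i3 (CAR) control CYP3A and CYP2B genes, and the aryl hydrocarbon receptor Ahr controls Cyp1a1.

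Between 66.5% and 71.0% of an array's gene spots were well above background, and the median gene spot intensity was 80.8 to 113. The 4 arrays shared 1 slide, where control occupied the places numbered 1 and 2 and compost those numbered 3 and 4, so an effect of place on the slide cannot be told apart from the treatment. Intensities below were brought to a common 75th percentile of 805 and are called scaled intensity. They can be compared between arrays for 1 probe, but not between probes. Every log2 difference is compost minus control, with the standard error of a limma fit over all 28415 probes. The tissue was a bulk sample, so fewer cells of a type and less RNA per cell cannot be told apart.

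No P450 gene passed an adjusted p of 0.05 in limma, and the same was true of all genes (0% called in either direction). Among the 28 genes well above background on all 4 arrays, the compost values lay below both control values for 9 (32.1%) and above both for 0, where the shares over the 22321 genes measured as fully were 14.6% and 12.9%. At an unadjusted p under 0.05, 2 of the 28 were lower in compost (Cyp4f1 and Cyp4f5) and 0 were higher, against 1.38% of those genes lower and 1.19% higher. Differences were below 0 for 21 of the 28, against 52.9%, and the median was -0.27, against -0.01. A difference of at least 1 log2 unit was seen for 2 of the 28 downwards (Cyp2c65 and Cyp2b15) and 0 upwards, against 0.497% and 0.762% of the genes measured as fully. Both rested on control replicate 1: without that rat the differences were -0.47 for Cyp2c65 and 0.05 for Cyp2b15. The members are not independent of each other, since several lie side by side in the genome, resemble each other in sequence and were read from the same RNA.

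The other 6 of the 34 genes (Cyp1a1, Cyp2d3, Cyp2r1, Cyp4a3, Cyp4f4 and Cyp7b1) were well above background on 2 or 3 arrays, so part of each value was not well measured. With them, 12 of the 34 (35.3%) had both compost values below both control values, against 15.2% of all 24313 genes, and 1 (Cyp1a1, 2.94%) had them above, against 12.7%. The groups overlapped for the other 21. Differences were below 0 for 24 (70.6%), against 53.5% of all genes, and the median was -0.27, against -0.02. Counts at an unadjusted p under 0.05 were 3 lower, with Cyp2d3 as the third, and 0 higher, against 1.80% and 1.51% of all genes. Those of at least 1 log2 unit were 3 lower, again with Cyp2d3, and 1 higher (Cyp1a1), against 1.04% and 1.23%. Cyp2d3 entered these counts through its control values alone, since neither compost rat was well above background. The median depended on control replicate 1: without that rat it was -0.03.

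**Figure D1:**
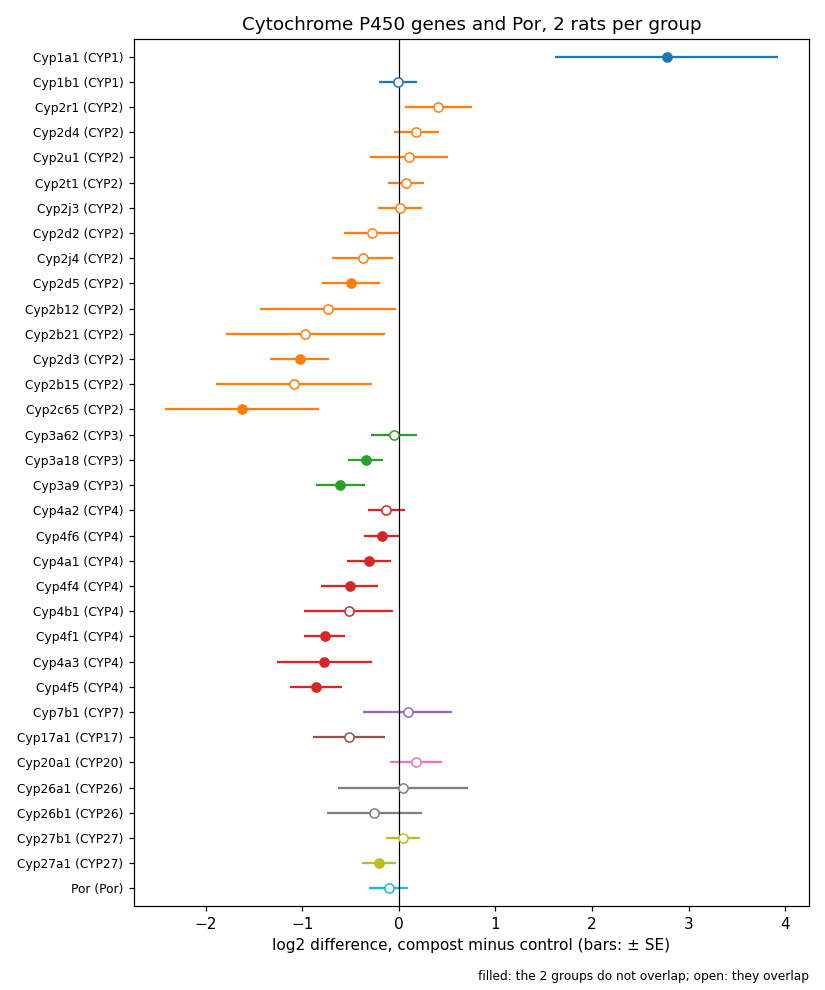
Log2 difference (x axis, compost minus control, bars ± SE of the limma fit, 2 rats per group) of each of the 34 genes (y axis), coloured by family. Filled points are the 13 genes whose groups do not overlap: Cyp1a1 lies far to the right at 2.77, and all 8 CYP4 genes and all 3 CYP3 genes lie left of 0.

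The CYP4 family, the fatty acid and eicosanoid hydroxylases, had a difference below 0 for every one of its 8 kept genes, from -0.86 to -0.13, with a median of -0.52. All 8 stayed below 0 under each other scaling and with each rat left out in turn, though leaving out compost replicate 1 brought Cyp4b1 to -0.0010 and Cyp4a2 to -0.0059. Both compost rats were below both control rats for 6 of the 8 (against 15.2% of all genes), and in 2 of those 6, Cyp4f4 and Cyp4a3, only 1 compost rat was well above background. The CYP4F enzymes, which hydroxylate leukotriene B and arachidonic acid, gave the 2 smallest p-values of the 28 genes measured on all arrays. Cyp4f1, listed on the array under the older name Cyp4f2, had a scaled intensity of 58215 and 53100 in the control rats and of 28991 and 36720 in the compost rats. Both compost values were under both control values, by a gap wider than the spread within either pair. The difference was -0.77 ± 0.21 (95% interval -1.32 to -0.22), or 1.70-fold lower, with a limma p of 0.0164 before adjustment and 1.00 after. Cyp4f5 had 19260 and 28591 in control and 14226 and 11751 in compost. The groups did not overlap, though the control rats stood further apart from each other than the compost rats did. Its difference was -0.86 ± 0.27 (95% interval -1.57 to -0.15), or 1.81-fold lower, with a limma p of 0.0269 before adjustment and 1.00 after.

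Cyp4f4 was dim, with 22.4 and 37.2 in control and 21.0 and 19.5 in compost. The compost rats were again the lower ones, but only 1 of them was well above background, and the difference was -0.51 ± 0.30. Cyp4f6, the gene next to Cyp4f1, was lower by a smaller amount, with a difference of -0.17 ± 0.18 and groups that did not overlap. The CYP4A genes, fatty acid hydroxylases known as targets of the receptor Ppara, had differences of -0.77 ± 0.49 for Cyp4a3, -0.31 ± 0.23 for Cyp4a1 and -0.13 ± 0.19 for Cyp4a2. The Cyp4a3 value came mainly from compost replicate 2, which was not well above background there, while compost replicate 1 was close to the controls. Cyp4b1, which oxidises fatty acids and some plant toxins, overlapped between groups (-0.52 ± 0.46). Cyp4a8 and Cyp4x1 were not measured well enough on any array.

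The sequence upstream of the CYP4F genes is shown because Cyp4f1 and Cyp4f5 held those 2 p-values. RefSeq's GRCr8 table held a promoter for 28 of the 34 genes, without Cyp4f4, Cyp4a1, Cyp1a1, Cyp2c65, Cyp7b1 and Cyp17a1. The 250 bases before the start are printed 5′ to 3′ on the gene's strand, Cyp4f1 from chr7:12672554-12672803 (minus strand) and Cyp4f5 from chr7:12194387-12194636 (plus strand). Capitals mark GCGTG, the core letters bound by the aryl hydrocarbon receptor, or its complement CACGC.
Cyp4f1: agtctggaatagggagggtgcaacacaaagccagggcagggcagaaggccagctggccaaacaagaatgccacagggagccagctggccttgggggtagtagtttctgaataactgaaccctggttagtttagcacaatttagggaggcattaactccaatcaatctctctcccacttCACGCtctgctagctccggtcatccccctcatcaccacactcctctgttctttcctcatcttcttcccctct
Cyp4f5: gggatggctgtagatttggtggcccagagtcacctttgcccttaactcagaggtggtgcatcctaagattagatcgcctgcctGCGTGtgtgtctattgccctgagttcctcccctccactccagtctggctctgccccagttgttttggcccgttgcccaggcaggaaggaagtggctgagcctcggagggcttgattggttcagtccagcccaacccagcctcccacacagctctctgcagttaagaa
GCGTG on either strand was in 11 of the 28 promoters, that of Por among them, and in 25.9% of all 33360 promoters of that length. It was also upstream of Cyp4f6. The match is a description of letters and was not a test of binding. AGGTCA and AGTTCA, marked below for other genes, were not found upstream of Cyp4f1, Cyp4f5 or Cyp4f6. Cyp4f1 and Cyp4f5 were 79.5% identical over 78 aligned promoter bases, while Cyp4a2 and Cyp4a3, neighbours on another chromosome, were 96.3% identical over 245. Identity was counted only over bases paired in a gapped alignment. Cyp26a1 and Cyp26b1, on different chromosomes, reached 82.8% over 64, so a high value over so few bases says little.

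CYP3A enzymes, the main drug-oxidising P450s of the gut, all had differences below 0. Cyp3a9, named Cyp3a13 on the array, had scaled intensities of 75244 and 51754 in control and 38952 and 43138 in compost. Both compost rats were below both control rats, and control replicate 1 was the highest. The difference was -0.61 ± 0.25 (95% interval -1.27 to 0.06), or 1.52-fold lower, with an unadjusted limma p of 0.0646, and without control replicate 1 it was -0.34. Cyp3a18 had 7409 and 6713 in control and 5398 and 5711 in compost. Its groups also did not overlap, and the gap was wider than the spread within either pair. The difference was -0.34 ± 0.18 (95% interval -0.82 to 0.13). Cyp3a62, a form known from the rat intestine, had 38454 and 28055 in control and 29435 and 34051 in compost. Both compost values lay between the control values, and the difference of -0.05 ± 0.24 had a 95% interval of -0.68 to 0.57. Without control replicate 1 it was 0.17, and with compost replicate 1 left out it was 0.052. Cyp3a2 and Cyp3a23-3a1, CYP3A forms best known from rat liver, were not well above background on any array.

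**Figure D2:**
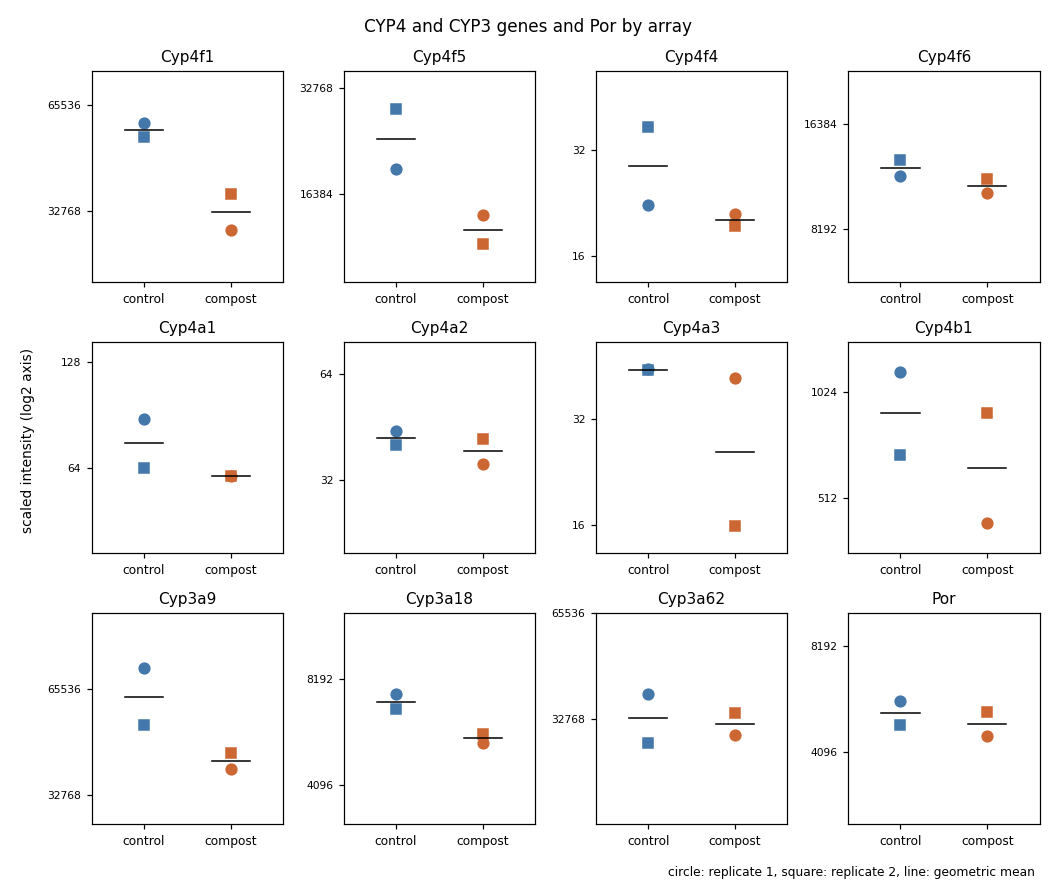
Scaled intensity (y axis, log2 scale, its range set panel by panel) of the CYP4 and CYP3 genes and Por in each control and compost rat (circle for replicate 1, square for replicate 2), with the geometric mean of each group as a line. Cyp4f1, Cyp4f5, Cyp3a9 and Cyp3a18 show both compost rats below both control rats, and Cyp3a62 shows the compost rats between the controls.

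The promoters of the CYP3A genes are shown because these genes are the classic targets of PXR, which binds as a pair with the retinoid X receptor to repeats of AGTTCA or AGGTCA. The stretches are Cyp3a9 from chr12:21960161-21960410 (minus strand), Cyp3a18 from chr12:13994062-13994311 (plus strand) and Cyp3a62 from chr12:21511513-21511762 (plus strand) of GRCr8. Capitals mark AGTTCA or its complement TGAACT.
Cyp3a9: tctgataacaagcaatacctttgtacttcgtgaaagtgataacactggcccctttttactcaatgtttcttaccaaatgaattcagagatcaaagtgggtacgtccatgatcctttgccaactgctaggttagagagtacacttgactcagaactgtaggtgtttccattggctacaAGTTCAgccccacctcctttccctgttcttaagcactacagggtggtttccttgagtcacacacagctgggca
Cyp3a18: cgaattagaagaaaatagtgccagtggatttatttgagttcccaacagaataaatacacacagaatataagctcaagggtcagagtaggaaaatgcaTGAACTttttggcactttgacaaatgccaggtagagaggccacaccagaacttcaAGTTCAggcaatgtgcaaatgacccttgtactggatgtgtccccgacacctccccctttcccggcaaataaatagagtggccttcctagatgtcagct
Cyp3a62: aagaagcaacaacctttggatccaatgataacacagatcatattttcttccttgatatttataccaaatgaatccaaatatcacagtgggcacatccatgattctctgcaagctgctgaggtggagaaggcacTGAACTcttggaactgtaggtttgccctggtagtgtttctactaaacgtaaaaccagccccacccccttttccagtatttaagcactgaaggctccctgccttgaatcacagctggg
All 3 stretches held AGTTCA on either strand at least once. It was in 9 of the 28 promoters and in 12.2% of all 33360. Cyp3a62, which overlapped between groups, held it as did the other two genes.

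CYP2, the largest family, had 13 kept genes, of which 8 had differences below 0 and 5 above, with a median of -0.38 that became 0.05 without control replicate 1. Both compost rats were below both control rats for 3 of the 13 (Cyp2c65, Cyp2d5 and the dim Cyp2d3), or 23.1%, against 15.2% of all genes. The CYP2D enzymes oxidise basic drugs. Cyp2d3, named Cyp2d13 on the array, had scaled intensities of 30.3 and 32.6 in control and 11.8 and 20.1 in compost. The control rats were close together and both compost rats lay below them, not well above background in either, so the gene was kept through its control values and its compost values are bounds. On the processed intensity the bound was at least 1.90-fold lower in compost, with a limma adjusted p of 1.00. That bound did not hold with the normexp background correction, where the measured difference was -0.37, or with compost replicate 1 left out, where it was -0.64. Without Cyp2d3, 11 of the P450 genes were below control in both compost rats and the median was -0.26.

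Cyp2d5, named Cyp2d10 on the array, had 3441 and 3621 in control and 1929 and 3245 in compost. Compost replicate 1 was the low one, and compost replicate 2 lay just under the controls. The difference was -0.50 ± 0.30, and -0.12 without compost replicate 1. Cyp2d2 and Cyp2d4 overlapped between groups, with -0.28 ± 0.28 and 0.18 ± 0.23. The other probe of Cyp2d4 gave 0.24 ± 0.29. Cyp2d4, Cyp2d5, Cyp2d3 and Cyp2d2 lie in that order with at most 1 protein-coding gene between neighbours, and the upstream sequences of Cyp2d3 and Cyp2d5 were 97.2% identical over 211 aligned bases. Probe sequences were not used here, so signal shared between such close copies could not be separated.

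Cyp2c65 belongs to the CYP2C enzymes, which oxidise drugs and arachidonic acid. Its scaled intensity was 571 and 115 in control and 100.0 and 68.9 in compost. Control replicate 1 stood far above the other 3 rats, and control replicate 2 lay little above compost replicate 1. The difference of -1.63 ± 0.80 (95% interval -3.73 to 0.47, unadjusted limma p of 0.102) became -0.47 without control replicate 1. The rule missed 5 probes of P450 genes that carry older names on the array, and the 3 kept among them gave -0.75 ± 0.29 for Cyp2c11, -0.36 ± 0.49 for Cyp2j10 and -0.23 ± 0.26 for Cyp4f17.

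The CYP2B subfamily, in liver the classic CAR-responsive drug enzymes, had 3 kept genes, whose values in each rat are given although their p-values were not among the 3 smallest of the family. Cyp2b15 had 823 and 170 in control and 234 and 133 in compost, a difference of -1.09 ± 0.81. Cyp2b21 had 629 and 119 in control and 167 and 118 in compost, a difference of -0.97 ± 0.82. Cyp2b12 had 319 and 76.7 in control and 106 and 83.2 in compost, a difference of -0.74 ± 0.71. In all 3 the groups overlapped and control replicate 1 was the only high rat. Without it the differences were 0.05, 0.23 and 0.29.

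The CYP2B genes are neighbours, with 2 protein-coding genes between Cyp2b21 and Cyp2b12 and 1 between Cyp2b12 and Cyp2b15. The array named the probes of both Cyp2b12 and Cyp2b15 as Cyp2b15. Probes of such close copies could share signal, which could not be checked. Their upstream sequences are shown because the pair is nearly identical there and control replicate 1 was the high rat for both, as it was for Cyp2b21 and Cyp2c65. They are Cyp2b12 from chr1:91135044-91135293 (plus strand) and Cyp2b15 from chr1:91221615-91221864 (plus strand) of GRCr8, with AGGTCA in capitals.
Cyp2b12: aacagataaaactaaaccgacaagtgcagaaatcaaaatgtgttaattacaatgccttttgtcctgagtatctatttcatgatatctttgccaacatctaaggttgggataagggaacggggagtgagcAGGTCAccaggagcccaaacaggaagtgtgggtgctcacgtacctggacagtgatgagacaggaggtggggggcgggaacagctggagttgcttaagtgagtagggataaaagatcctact
Cyp2b15: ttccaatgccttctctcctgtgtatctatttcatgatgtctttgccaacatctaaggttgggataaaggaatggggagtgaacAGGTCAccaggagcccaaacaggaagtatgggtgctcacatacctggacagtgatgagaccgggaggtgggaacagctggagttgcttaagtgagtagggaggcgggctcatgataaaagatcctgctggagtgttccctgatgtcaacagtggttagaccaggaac
The pair was 93.9% identical over 197 aligned bases, and Cyp2b12 and Cyp2b21 were 82.8% identical over 203. AGGTCA on either strand was upstream of all 3 CYP2B genes, of 9 of the 28 genes with a promoter (Por among them) and of 14.1% of all promoters.

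**Figure D3:**
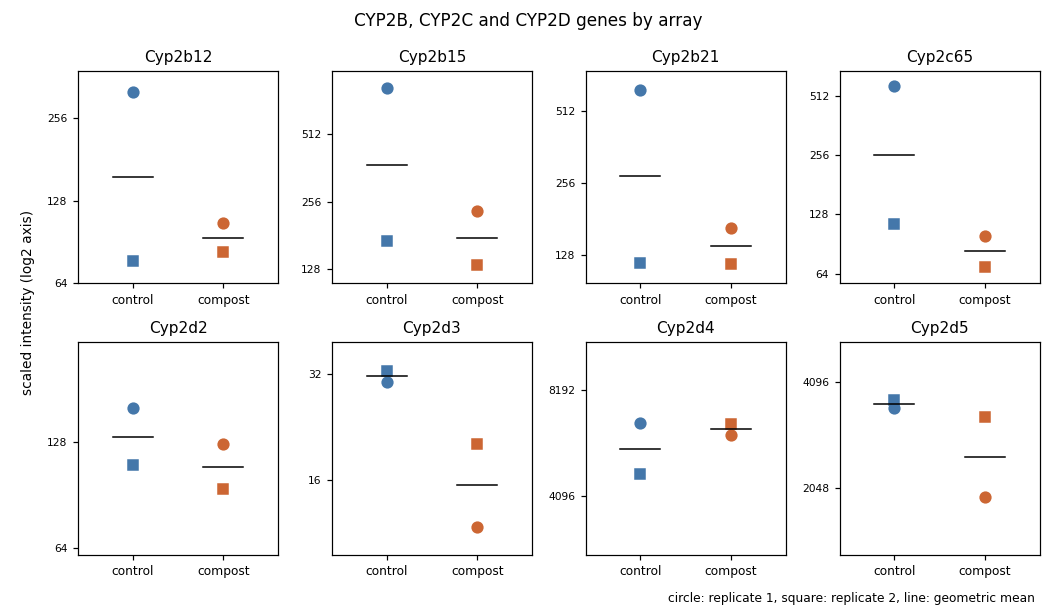
Scaled intensity (y axis, log2 scale, its range set panel by panel) of the CYP2B, CYP2C and CYP2D genes in each control and compost rat (circle for replicate 1, square for replicate 2), with the geometric mean of each group as a line. Control replicate 1 stands alone at the top for Cyp2b12, Cyp2b15, Cyp2b21 and Cyp2c65, while both controls lie together for Cyp2d3 and Cyp2d5.

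The other CYP2 genes lay near 0 or overlapped. Cyp2j4 and its neighbour Cyp2j3, epoxygenases of arachidonic acid, had -0.38 ± 0.32 and 0.01 ± 0.23. Cyp2u1, a fatty acid hydroxylase, had 0.10 ± 0.40, and Cyp2t1 had 0.07 ± 0.18. Cyp2r1, which makes the circulating form of vitamin D, had 0.41 ± 0.35 but was well above background in only 1 rat of each group.

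The CYP1 genes, targets of the aryl hydrocarbon receptor, held the largest positive difference among the 34 genes. Cyp1a1, which oxidises planar aromatic compounds, had scaled intensities of 79.4 and 10.3 in control and 103 and 370 in compost. Both compost values exceeded both control values, but the margin between control replicate 1 and compost replicate 1 was small, and control replicate 2 was not well above background. The difference was 2.77 ± 1.15 (95% interval -0.26 to 5.81), or 6.83-fold, with a limma p of 0.0651 before adjustment and 1.00 after. Leaving out 1 rat gave 1.30 (control replicate 2 left out), 4.24 (control replicate 1), 1.85 (compost replicate 2) and 3.69 (compost replicate 1). With the normexp background correction it was 1.27.

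Cyp1a1 was printed as 10 spots on each array, so the spread between spots can be set beside that between rats. All 10 spots were well above background on 3 arrays, and 1 of 10 on control replicate 2. The spots ran from 65.0 to 94.0 on control replicate 1, from 6.33 to 20.3 on control replicate 2, from 95.7 to 112 on compost replicate 1 and from 347 to 394 on compost replicate 2. The 4 arrays did not overlap in their spots, so the spread between the rats was larger than the spread between spots. Cyp2e1, an ethanol-oxidising P450 also printed as 10 spots, was well above background in none of them on any array.

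**Figure D4:**
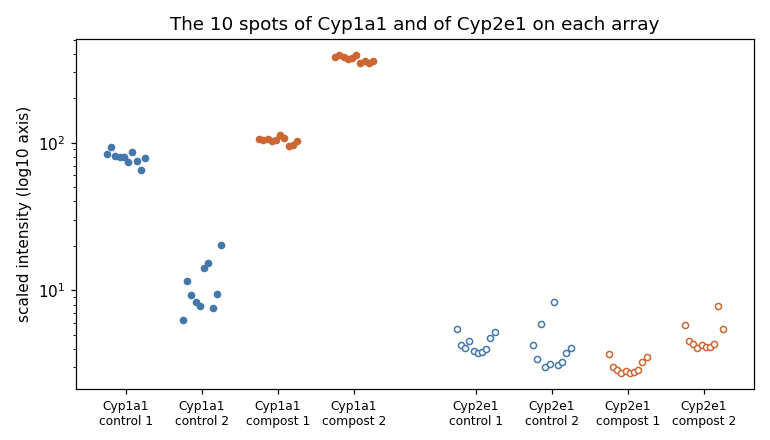
Scaled intensity (y axis, log10 scale) of the 10 spots of Cyp1a1 and of Cyp2e1 on each array (x axis), filled for Cyp1a1 and open for Cyp2e1, control in blue and compost in orange. The Cyp1a1 spots run from 347 to 394 on compost replicate 2 and from 6.33 to 20.3 on control replicate 2, where they scatter most.

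Cyp1b1, the other detected CYP1 gene, had 108 and 123 in control and 123 and 107 in compost. The groups overlapped entirely, with a difference of -0.01 ± 0.19 (95% interval -0.52 to 0.50). A dimmer probe of the gene, well above background in 1 control rat and both compost rats, gave 0.45 ± 0.31 with overlapping groups. Cyp1a2 was not well above background on any array. Among 6 tested targets of the receptor outside the P450s, 3 had positive and 3 negative differences, with a median of 0.05. Nqo1, a quinone reductase also driven by Nfe2l2, had 442 and 773 in control and 1183 and 1159 in compost, a difference of 1.00 ± 0.32 with an unadjusted limma p of 0.0274. Both compost rats were above both controls. Ugt1a6, a glucuronidating enzyme, ran the other way at -0.54 ± 0.26, and Aldh3a1 (0.20 ± 0.27) and Tiparp (0.12 ± 0.20) overlapped. Ahr itself was well above background on 1 array and was not tested.

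The families that act on sterols, hormones and vitamins mostly overlapped between groups. Cyp17a1, a steroid hydroxylase of androgen synthesis, had 10336 and 5162 in control and 4900 and 5349 in compost. Control replicate 1 was the only high rat, and the difference was -0.51 ± 0.37. Cyp27a1, a mitochondrial sterol hydroxylase of bile acid synthesis, had 1038 and 977 in control and 861 and 888 in compost. Both compost rats were slightly below both controls, with a difference of -0.20 ± 0.17. Cyp27b1, which makes the active vitamin D hormone, had 81.5 and 74.6 in control and 83.3 and 77.5 in compost. Those values interleaved, with a difference of 0.04 ± 0.18.

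Cyp26a1 and Cyp26b1, which clear retinoic acid, varied widely within groups. Cyp26a1 had 84.0 and 47.1 in control and 121 and 34.8 in compost, so that the compost rats held both the highest and the lowest value (0.05 ± 0.67). Cyp26b1 had 582 and 220.4 in control and 307 and 293 in compost, so that the controls held both extremes (-0.26 ± 0.49). Cyp7b1, an oxysterol hydroxylase, had 31.1 and 28.2 in control and 49.6 and 20.0 in compost. Its compost rats lay on either side of the controls (0.09 ± 0.47), and only 1 of them was well above background. Cyp20a1, a P450 without a well-defined substrate, had 1545 and 2105 in control and 2398 and 1733 in compost, an overlapping 0.18 ± 0.27.

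Por, which supplies electrons to all P450s of the endoplasmic reticulum, had 5721 and 4893 in control and 4551 and 5309 in compost. The groups overlapped, with a difference of -0.11 ± 0.20 (95% interval -0.63 to 0.42). Across 20 tested genes of electron donation and haem supply, 10 differences were above 0 and 10 below, with a median of 0.00. Hmox1, which breaks down haem, had 0.27 ± 0.20, Blvra 0.16 ± 0.17, Pgrmc1 -0.19 ± 0.19 and Cyb5a -0.17 ± 0.20. None of the 20 had an unadjusted limma p under 0.05.

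Of 17 tested receptors and factors that control P450 genes, 12 had differences below 0 (70.6%, against 53.5% of all genes) and 5 above. The median was -0.08. Both compost rats were below both controls for 6 of the 17 (35.3%, against 15.2% of all genes). They were above both for 1 (5.88%, against 12.7%). None of the 17 had an unadjusted limma p under 0.05. Nr0b2 (SHP), a repressor induced by bile acids, had -0.68 ± 0.31, Rxrg -0.51 ± 0.28, the bile acid receptor Nr1h4 (FXR) 0.60 ± 0.36 and Nr1i3 (CAR) -0.42 ± 0.28. Nr1i2 (PXR), outside the 4 smallest p-values but the receptor most tied to CYP3A genes, had -0.19 ± 0.18. Among 25 other oxidoreductases and hydrolases of drug metabolism, 15 were below 0 and 10 above, with a median of -0.05. Both compost rats were below both controls for 8 of the 25 (32%, against 15.2% of all genes). They were above both for 1 (4%, against 12.7%). At an unadjusted limma p under 0.05, 2 of the 25 were lower (8%, against 1.80%) and 0 were higher (against 1.51%). Fmo4, a flavin monooxygenase, had 706 and 763 in control and 446 and 451 in compost, a difference of -0.71 ± 0.18 with an unadjusted limma p of 0.0115. Akr1c14, a hydroxysteroid dehydrogenase, had -0.72 ± 0.20 with a p of 0.0176 in the same fit. Both genes were lower in both compost rats than in either control, as was Maob (-0.86 ± 0.35), while Adh1c was higher in both (1.00 ± 0.48).

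Markers of absorptive enterocytes mostly had differences below 0. Of 24 tested absorptive enterocyte markers, 22 had differences below 0, with a median of -0.44. It was -0.40 over those well above background on all 4 arrays, -0.14 without compost replicate 1 and -0.25 without control replicate 1. Both compost rats were below both controls for 13 of the 24 (54.2%, against 15.2% of all genes). The summed scaled intensity of the 24 was 2393890 to 2835600 in control and 1769140 to 2334220 in compost. The gap between those sums rests on Apoa4, which had 431568 and 216169 in control and 88610.5 and 113923 in compost. Apoa4 had -1.60 ± 0.39 and Anpep -0.75 ± 0.21. Lct and Alpi were well above background in both controls and in neither compost rat, so both entered these counts through their control values alone. The general epithelial markers did not share this direction, with 6 of 12 above 0 and a median of 0.03. The part of enterocyte content in the P450 values was not tested.

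Of 10 tested markers of proximal small intestine, 4 of which are also on the enterocyte list, 7 were below 0. Their median of -0.49 was -0.27 over those well above background on all 4 arrays, -0.090 without compost replicate 1 and 0.16 without control replicate 1. Their sum was 679168 to 900549 in control and 462022 to 571479 in compost. Fabp1 and Apoa4, both also on the enterocyte list, made up most of each sum, so it says little about the other markers. Fabp1 had 401238 and 397731 in control and 302624 and 364813 in compost. Apoa4 had 431568 and 216169 in control and 88610.5 and 113923 in compost. Both compost rats were below both controls for 4 of the 10 proximal markers (40%, against 15.2% of all genes). Lct, among them, entered through its control values alone. Both compost rats were above both controls for 1 of the 10 (10%, against 12.7%). Distal markers had a median of 0.06 over 12 genes, with 0 genes whose groups did not overlap, against the same shares of all genes. Markers of B and plasma cells were higher in both compost rats for 8 of 9 genes (88.9%, against 12.7% of all genes). Ms4a1 and Cr2 entered that count through their compost values alone, since neither control rat was well above background. The median was 1.45, or 1.35 over the markers well above background on all 4 arrays. The sums of these B and plasma cell markers were 4634 to 6042 in control and 8963 to 14086 in compost. Cd79b of the B cell receptor had 2.43 ± 0.64 and Mzb1, a plasma cell chaperone, 1.69 ± 0.49. Macrophage and dendritic cell markers were above 0 for 13 of 15, with a median of 0.60 that became 0.13 without compost replicate 1. Both compost rats were above both controls for 6 of the 15 (40%, against 12.7% of all genes). The sums of the 15 overlapped (227395 to 294085 in control and 212768 to 299093 in compost). Lyz2 alone made up most of each sum, so the overlap rests mainly on that gene. It had 174656 and 254789 in control and 212564 and 159044 in compost. The part of segment and of immune cells in the P450 values was not tested.

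Hepatocyte markers had a median of 0.00 over 8 genes, with members on both sides: G6pc1, a gluconeogenic enzyme that enterocytes also make, had -1.22 ± 0.22 (unadjusted limma p of 0.00356) and the fibrinogen chain Fga 1.43 ± 0.56. Alb, Ahsg, Hpx, Tat and Hpd were not among the probes kept. Exocrine pancreas markers had a median of -0.21 over 9 genes, with Prss1 at 2.08 ± 0.59 (well above background in 1 control rat) and with Cpa1, Cpb1 and Pnlip not kept. Smooth muscle markers had a median of 0.12 over 8 genes.

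**Figure D5:**
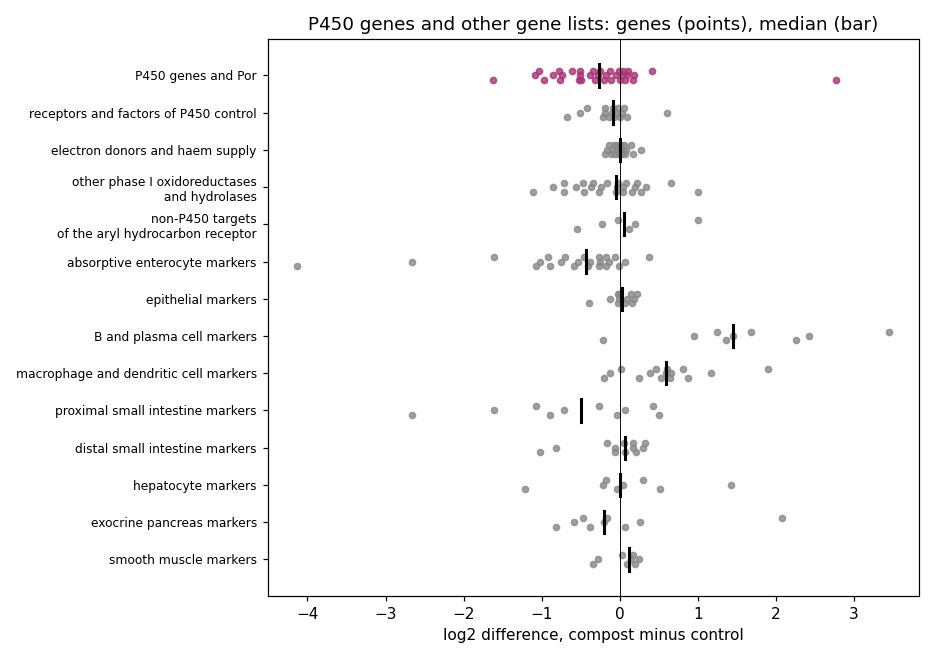
Log2 difference (x axis, compost minus control) of every tested gene (points) of the P450 genes with Por and of 13 other gene lists (y axis), with the median of each list as a black bar. The P450 median of -0.27 lies between those of the epithelial markers (0.03) and of the absorptive enterocyte markers (-0.44), and B and plasma cell markers lie farthest right at 1.45.

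The remaining 29 genes of the rule were not measured well enough to be tested. For 25 of them no array was well above background, and for 4 (Cyp11b1, Cyp11b2, Cyp2a2 and Cyp2f4) a single array was. They included 13 of the 26 CYP2 genes (Cyp2a1, Cyp2a2, Cyp2b3, Cyp2c7, Cyp2c12, Cyp2c13, Cyp2c22, Cyp2c23, Cyp2c37, Cyp2e1, Cyp2f4, Cyp2g1 and Cyp2w1), many of them known as liver enzymes. Also among them were the 4 CYP11 genes of steroid synthesis (Cyp11a1, Cyp11b1, Cyp11b2 and Cyp11b3), Cyp7a1 and Cyp8b1 of hepatic bile acid synthesis, Cyp19a1, which makes oestrogens, Cyp21a1, a further adrenal steroid hydroxylase, Cyp46a1, a brain cholesterol hydroxylase, Cyp39a1, an oxysterol hydroxylase, and Cyp24a1, which breaks down active vitamin D. Cyp1a2, Cyp3a2, Cyp3a23-3a1, Cyp4a8 and Cyp4x1 complete the 29. An array not well above background gives no evidence that the gene is silent.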

How the data were processed

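Per the labels, total RNA of each of 4 rats was labelled with Cy3 for 1-colour Agilent rat arrays. The deposited scanner files gave, per the file headers, the linear intensity of each spot after background subtraction and detrending, without scaling across arrays. The software was Agilent Feature Extraction, version 9.1.3.1 per the submitters' processing notes. The value table deposited by the authors gave these intensities rounded, within 0.497% of the scanner values, and its medians were 80.2 and 79.4 for control and 102 and 73.9 for compost.

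For each probe the mean log2 intensity of its spots was taken, less the 75th percentile of the array. Control spots and 31 probes flagged as outliers were left out, and a probe was kept if 2 or more of 4 arrays were well above background. The fit of compost minus control used limma 3.58.1 (lmFit, eBayes, R 4.3.3), two-sided, with Benjamini-Hochberg adjustment over 28415 probes and a threshold of 0.05. P-values printed as unadjusted come from the same fit. An exact permutation of 2 against 2 rats cannot go below p = 0.333, and precision is limited by having 4 arrays.

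A gene was its kept probe with the highest mean. Old array names were updated through RefSeq's GRCr8 table (10835 probes by accession, 5201 by symbol, 3488 by synonym, and 21488 kept the file's name), and 12 of the 34 genes changed name. A group not well above background on every array got a bound: the brighter group's mean over the dim group's, each dim array being raised to its lowest detected signal where the probe was under it. Motifs were searched in the 250 bases before the start, on both strands.

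Values in every rat were given for Por, for up to 3 genes per family with the smallest unadjusted p, and for genes whose probes disagreed in sign or that were not well above background in 1 group. Of each of 13 pathway and marker lists, up to 4 genes with the smallest p were named. The members and lists were chosen with earlier results of these data known. Alternatives were normexp, quantile and median scaling, other filters, the mean of probes, limma with trend and robust variance, the authors' table, a replicate block and leaving out each rat.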

Additional observations from a re-analysis of the deposited data

Results flagged for a closer look

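One probe outside the tested set carried signal in a single compost rat. Cyp2a2, a steroid-hydroxylating P450 best known from male rat liver, was well above background on compost replicate 1 alone, with an intensity of 17.1 before scaling. The same probe read 12.1 on compost replicate 2 and 15.3 and 9.19 on the control arrays, where it was not well above background, so the value lay close to that of control replicate 1.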

How the results depend on the processing

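With 2 rats per group, leaving out any 1 rat leaves a lone sample in its group, assumed to vary like the other pair, and limma then still fits. In 13 alternatives 0 of the 34 genes passed an adjusted p of 0.05, with 0.222 as the smallest (Cyp2c65 without control replicate 2), and 18 of the 34 kept their sign in each of them. The number of rats and the dim signal of Cyp2d3, Cyp4f4, Cyp4a3, Cyp2r1 and Cyp7b1 limit the values, and the cause of the changes below was not tested.

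With normexp, 1 gene was higher at an unadjusted p under 0.05 and 2 had both compost rats above both controls, the CYP4 median was -0.32, the B and plasma cell median 0.93, Cyp1b1 0.059, Cyp27b1 -0.015 and Cyp2u1 -0.11. With quantile scaling the CYP4 median was -0.46, Cyp1b1 0.0052 and Cyp2j3 -0.013. With median scaling the CYP4 median was -0.48, the electron donor median 0.039 and Cyp1b1 0.030. With no filter, which lets in the 29 genes not measured well enough, 46 of 63 genes were below 0. There, 1 was higher at an unadjusted p under 0.05 and 5 had both compost rats higher. The CYP4 median was -0.41 and the hepatocyte median 0.091. With genes well above background on all 4 arrays, 0 had both compost rats higher and the CYP4 median was -0.42. With a trend and robust variance 1 gene was higher at an unadjusted p under 0.05. With the mean of probes the other phase I median was -0.16 and Cyp1b1 0.22. The shares over all genes were taken for the setting on all 4 arrays but not for the others, so those counts have no background. 

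Same-numbered rats of both groups did not deviate together (correlation of deviations -0.036 for each number). With the number as a replicate block, 4 genes were lower at an unadjusted p under 0.05 in place of 3, 0 passed an adjusted p of 0.05 and the P450 median was -0.27. The labels do not say that the numbers pair the rats, so nothing is read from the block.

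Leaving out each rat in turn gave 1 to 8 genes with the compost values higher and 13 to 25 lower, the larger counts arising because a lone rat is easier to separate. It gave 20 to 29 genes below 0, 0 to 2 higher and 2 to 7 lower at an unadjusted p under 0.05. The medians ran from -0.39 to -0.030 for P450 genes, -0.55 to 0.050 for CYP2, -0.42 to -0.27 for CYP3, -0.56 to -0.39 for CYP4 and -0.05 to 0.02 for all genes. They ran from -0.17 to -0.039 for receptors, -0.010 to 0.075 for electron donors, -0.39 to -0.062 for other phase I genes, -0.12 to 0.18 for receptor targets, -0.65 to -0.14 for enterocyte, -0.076 to 0.16 for epithelial, 1.36 to 1.57 for B and plasma cell, 0.13 to 1.01 for macrophage, -1.04 to 0.16 for proximal, -0.072 to 0.11 for distal, -0.20 to 0.18 for hepatocyte, -0.28 to 0.27 for pancreas and -0.12 to 0.34 for smooth muscle markers. Genes whose sign turned ran from -1.77 to 0.29 (Cyp2b12), -2.22 to 0.050 (Cyp2b15), -2.17 to 0.23 (Cyp2b21), -0.28 to 0.17 (Cyp3a62), -0.96 to 0.45 (Cyp26b1), -0.85 to 0.95 (Cyp26a1), -0.56 to 0.74 (Cyp7b1), -0.057 to 0.41 (Cyp20a1), -0.42 to 0.63 (Cyp2u1), -0.11 to 0.10 (Cyp1b1), -0.020 to 0.11 (Cyp27b1), -0.057 to 0.42 (Cyp2d4), -0.19 to 0.21 (Cyp2j3), -0.04 to 0.85 (Cyp2r1), -0.00044 to 0.15 (Cyp2t1) and -0.22 to 0.0066 (Por).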
